A study of Mus musculus with 9 samples.

Results

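The 8 genes described here, Tbx21, Eomes, Zeb2, Prdm1, Id2, Runx3, Bhlhe40 and Hopx, encode transcription regulators of effector CD8+ T cells. They were chosen by symbol from a list of such factors, and all 8 were found among the 18188 genes of each file. Poly(A) RNA was sequenced from mouse splenic CD8+ T cells in 5 libraries of wild type cells (WT) and 4 libraries of cells in which the gene for RIG-I, a cytosolic sensor of viral RNA, was knocked out (Rig1 KO). Age, sex, treatment, the knockout allele and the way the cells were purified are not stated in the labels. The study's title names RIG-I as a checkpoint on antitumour immunity of these cells, so the comparison asks how the transcripts of effector differentiation differ between the genotypes. Whether each numbered library is a separate animal is not stated, and p-values therefore reflect the spread among these libraries alone, which could be technical.

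Naive CD8+ T cells become cytotoxic effector cells under a small network of transcription factors. T-bet (Tbx21) and its T-box relative Eomes switch on cytotoxic and cytokine genes, and T-bet works with the repressor Zeb2 in terminal effector differentiation. Blimp-1 (Prdm1) represses memory genes, Runx3 keeps the CD8 lineage and its killing programme, and Id2 blocks the E proteins that hold precursor states. Bhlhe40 is a stress-responsive repressor that T cells induce on activation, and Hopx is a cofactor that does not bind DNA itself and is found in effector and memory cells. Several of these factors are also used outside T cells: natural killer cells express Tbx21 and Eomes, myeloid cells express Zeb2, and plasma cells express Prdm1.

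Of the 8 factors, 7 rose and 1 fell in the Rig1 KO libraries. Tbx21, Eomes and Hopx rose 2.17- to 2.52-fold in mean level, Prdm1 rose 2.39-fold from a low deposited TPM, Zeb2 rose with wide spread in WT, and Id2 and Runx3 rose slightly. Bhlhe40 fell 3.38-fold. These calls come from limma on log2(TPM + 1) over all genes at a Benjamini-Hochberg adjusted p under 0.05. TPM is the number of reads per gene divided by a gene length and scaled to 1e+06 per library. By the same test 33.5% of the 10540 genes tested were higher and 12.2% were lower, 45.7% in all, so being called is in itself common here. After scaling by the median ratio of the libraries, 23.7% were higher and 21.5% lower, with 6 of the 8 factors called higher and Bhlhe40 lower. The size of the change is less common: Tbx21, Eomes and Hopx passed a log2 fold change of 1, as did 2.37% of tested genes, and Bhlhe40 passed -1, as did 2.74%. The median log2 fold change of the 8 factors was 0.72, against 0.13 for all tested genes.

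**Figure D1:**
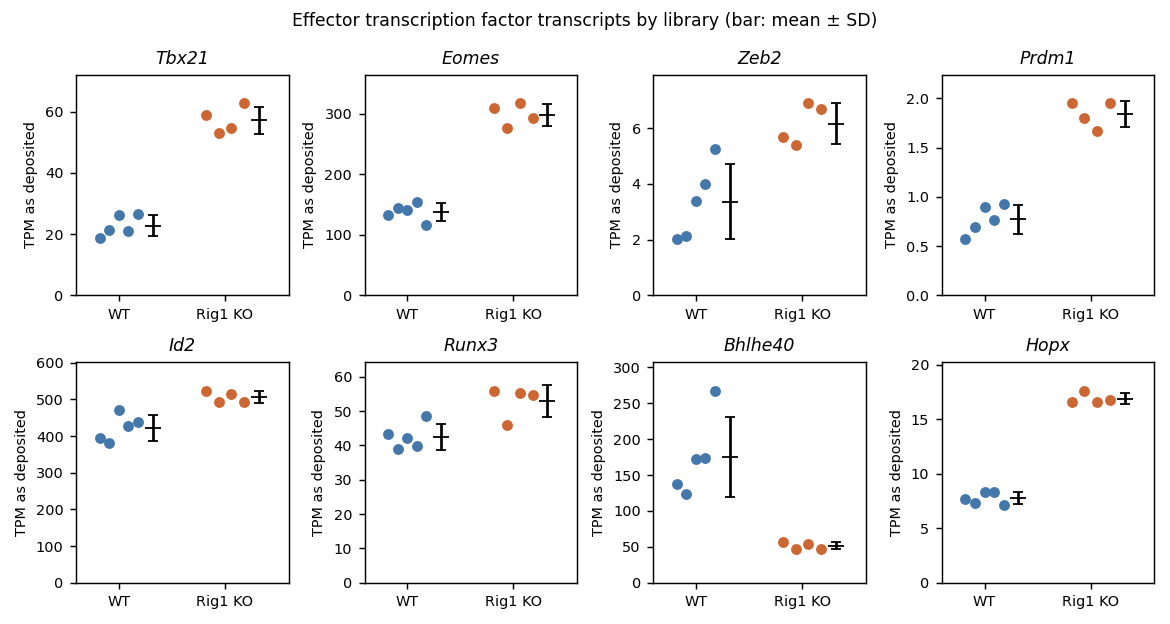
Deposited TPM of each of the 8 factors in the 5 WT and 4 Rig1 KO libraries, 1 point per library, with the mean and SD of the group beside the points; each vertical axis starts at 0. The groups are apart for all but Runx3, whose lowest Rig1 KO library (46.1 TPM) lies below the highest WT library (48.5 TPM).

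The libraries held at least 15496262 to 17893558 reads, recovered from the digits of the TPM values. The transcript of the targeted gene, listed under its older symbol Ddx58, was at 63.2 to 67.4 TPM in WT and 30.6 to 35.2 TPM in Rig1 KO. A sum of reads per gene cannot tell which exons the remaining transcript kept. All 10 markers of CD8+ T cells that were checked, such as Cd8a, Cd3e and Lck, were above 0 in every library. They summed to 3761 to 4341 TPM in WT and 5169 to 5765 TPM in Rig1 KO. Of these 10, 8 rose and 0 fell, with a median log2 fold change of 0.26. For this count and the marker counts below, the shares of all tested genes were 33.5% higher and 12.2% lower. Markers of other cells were present too. B cell markers (9 measured) summed to 165 to 1159 TPM in WT and 92.8 to 199 TPM in Rig1 KO, and WT 5 had the highest sum. Basophil and mast cell markers summed to 17.2 to 63.3 TPM in WT and 225 to 428 TPM in Rig1 KO, and 7 of 8 rose. Markers of CD4+ and regulatory T cells (5 measured) summed to 71.9 to 125 TPM in WT and 26.7 to 33.2 TPM in Rig1 KO, and 2 fell. Of 6 measured platelet and red cell markers, 4 fell (Pf4, Ppbp, Itga2b and Gp9) and 2 rose (Hbb-bs and Hba-a1). Pf4 went from 77.0 ± 9.48 TPM (SD, n = 5) to 7.41 ± 3.21 TPM (SD, n = 4), and Hbb-bs from 34.9 ± 19.2 to 101 ± 24.5 TPM. The part of these cells in the changes of the 8 factors was not tested, apart from the B cell, monocyte and natural killer fits given with the factors. In bulk RNA, fewer cells of a type and less RNA per cell cannot be told apart.

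The promoters of these genes are shown first, since several of the factors bind DNA themselves. Common regulation of the factors was not tested. The sequences are RefSeq's, on build GRCm38.p6, an older build than that of the deposited values, and each window runs from 250 bases before to 50 bases after an annotated start. The table held 12 windows for 7 of the 8 genes. Bhlhe40 had no entry. Each window was searched on both strands for exact matches to 6 motifs, which are in capitals in the sequences: the T-box core GGTGTG, RUNX TGTGGT, the E-box CACGTG that Bhlhe40 is known to bind, ZEB CAGGTG, AP-1 TGANTCA and the CRE core TGACGT. The T-box, RUNX and ZEB motifs can overlap each other by a few letters. Tbx21 (chr11:97115282-97115581, minus strand) and Eomes (chr9:118477939-118478238, plus strand) are printed as the T-box pair, and Zeb2 (chr2:45110228-45110527, minus strand), Prdm1 (chr10:44458699-44458998, minus strand), Runx3 (chr4:135120395-135120694, plus strand) and Hopx (chr5:77095218-77095517, minus strand) as windows that hold a motif of the network.
Tbx21: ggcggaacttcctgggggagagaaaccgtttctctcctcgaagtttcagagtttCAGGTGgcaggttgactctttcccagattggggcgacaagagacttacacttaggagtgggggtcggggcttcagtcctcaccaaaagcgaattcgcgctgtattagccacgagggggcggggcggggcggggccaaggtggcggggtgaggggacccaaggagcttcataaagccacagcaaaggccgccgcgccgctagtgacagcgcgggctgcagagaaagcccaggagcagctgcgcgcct
Eomes: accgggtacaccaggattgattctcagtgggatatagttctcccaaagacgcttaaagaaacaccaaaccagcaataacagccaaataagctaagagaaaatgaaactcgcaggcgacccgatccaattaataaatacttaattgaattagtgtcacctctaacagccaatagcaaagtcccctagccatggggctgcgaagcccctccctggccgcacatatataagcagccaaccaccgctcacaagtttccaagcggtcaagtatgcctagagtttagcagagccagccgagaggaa
Zeb2: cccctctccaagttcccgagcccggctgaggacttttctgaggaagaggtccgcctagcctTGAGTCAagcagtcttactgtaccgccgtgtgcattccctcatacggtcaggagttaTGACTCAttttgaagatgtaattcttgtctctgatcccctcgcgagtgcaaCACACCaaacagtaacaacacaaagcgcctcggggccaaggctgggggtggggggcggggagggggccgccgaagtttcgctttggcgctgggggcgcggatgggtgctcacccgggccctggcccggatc
Prdm1: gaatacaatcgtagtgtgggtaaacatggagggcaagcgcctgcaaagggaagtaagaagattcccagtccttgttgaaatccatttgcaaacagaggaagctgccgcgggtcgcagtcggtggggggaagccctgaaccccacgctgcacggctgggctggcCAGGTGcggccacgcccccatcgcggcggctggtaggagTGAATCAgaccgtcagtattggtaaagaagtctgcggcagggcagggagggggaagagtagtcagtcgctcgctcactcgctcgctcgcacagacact
Runx3: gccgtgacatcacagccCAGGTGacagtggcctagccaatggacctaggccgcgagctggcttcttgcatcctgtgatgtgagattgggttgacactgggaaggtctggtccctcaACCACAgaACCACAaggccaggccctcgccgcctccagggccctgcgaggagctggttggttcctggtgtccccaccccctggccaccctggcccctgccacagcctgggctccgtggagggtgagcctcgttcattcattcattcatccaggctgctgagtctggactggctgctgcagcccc
Hopx: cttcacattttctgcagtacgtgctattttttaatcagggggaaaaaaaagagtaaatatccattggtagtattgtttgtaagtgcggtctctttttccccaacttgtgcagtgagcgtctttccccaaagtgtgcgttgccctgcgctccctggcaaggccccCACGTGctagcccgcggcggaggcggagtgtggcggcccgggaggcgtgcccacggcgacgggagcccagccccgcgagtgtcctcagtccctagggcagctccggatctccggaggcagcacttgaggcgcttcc

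A match is a description of letters and does not show that a factor binds. This Zeb2 window held 1 T-box match and 2 AP-1 matches, and the 2 overlapping windows of a neighbouring Zeb2 start each held the same single T-box match. Among all 32851 promoter windows of the table, 19.0% held a T-box match and 7.81% an AP-1 match. The Runx3 window held 2 RUNX matches, separated by 2 bases, at positions 117 and 125 counted from its 5′ end, beside 1 ZEB match. RUNX matches were found in 16.8% of all windows. The Tbx21 and Prdm1 windows each held 1 ZEB match (20.2% of all windows), Prdm1 also held 1 AP-1 match, and the Hopx window held the E-box (7.15% of all windows). No match to the 6 motifs was found in the Eomes and Id2 windows, in the other Runx3 window, in the other Hopx window or in 1 further Zeb2 window. The values per gene sum reads over the whole gene and do not tell which start was used.

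Tbx21, the gene for T-bet, was at 18.6, 21.3, 26.2, 20.9 and 26.6 TPM in WT 1 to 5 and at 58.7, 52.9, 54.5 and 62.7 TPM in Rig1 KO 1 to 4. Every Rig1 KO library was above every WT library, and the lowest of them, 52.9 TPM, lay far above the highest WT value. The means were 22.7 ± 3.50 TPM (SD, n = 5) and 57.2 ± 4.39 TPM (SD, n = 4), a 2.52-fold difference, with a log2 fold change of 1.30 (SE 0.11, limma adjusted p = 5.37e-06). Only 1.06% of tested genes had a higher log2 fold change.

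Eomes was at 133, 144, 142, 155 and 116 TPM in WT and at 309, 276, 317 and 293 TPM in Rig1 KO, so the groups were again apart. Its mean went from 138 ± 14.7 TPM (SD, n = 5) to 299 ± 18.2 TPM (SD, n = 4), with a log2 fold change of 1.12 (SE 0.082, limma adjusted p = 2.75e-06). The T-box factors thus changed by similar amounts. WT 5, the lowest WT library for Eomes, was the highest for Tbx21.

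Hopx had the tightest values. It was at 7.70, 7.34, 8.34, 8.32 and 7.14 TPM in WT and at 16.6, 17.6, 16.5 and 16.8 TPM in Rig1 KO. The spread within a group was 7.08% of the mean in WT and 2.98% in Rig1 KO, and the groups lay far apart. The log2 fold change was 1.03 (SE 0.067, limma adjusted p = 1.19e-06), and 2.17% of tested genes had a higher one. Tbx21, Eomes and Hopx kept their calls under all 22 alternatives tried, with log2 fold changes from 0.99 to 1.36 for Tbx21, 0.99 to 1.22 for Eomes and 0.87 to 1.11 for Hopx.

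Prdm1, the gene for Blimp-1, had the fewest reads of the 8, 79 to 123 per WT library and 196 to 285 per Rig1 KO library, and its deposited TPM is low in part because the reads are divided by a span 16.4 times its exon length. In TPM it was at 0.573, 0.691, 0.896, 0.766 and 0.932 in WT and at 1.95, 1.80, 1.67 and 1.95 in Rig1 KO, with no overlap. The mean rose 2.39-fold, from 0.771 ± 0.148 TPM (SD, n = 5) to 1.84 ± 0.134 TPM (SD, n = 4). Its log2 fold change on the TPM + 1 scale was 0.68 (SE 0.099, limma adjusted p = 3.05e-04), which understates a gene this low: it was 1.17 when 0.1 was added in place of 1 and 1.21 by limma voom on the recovered reads. Plasma cells also express Prdm1, and their 6 measured markers summed to 161 to 257 TPM in WT and 234 to 272 TPM in Rig1 KO. Of these, Jchain, the joining chain of secreted antibodies, rose and Fkbp11 fell, while Sdc1 was at 0.917 to 2.08 TPM over all libraries and did not pass. The part of plasma cells in the Prdm1 rise was not tested.

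Zeb2, a zinc finger repressor that acts with T-bet, was at 2.03, 2.15, 3.40, 4.003 and 5.26 TPM in WT and at 5.69, 5.40, 6.89 and 6.68 TPM in Rig1 KO. There was no overlap, but the WT libraries differed 2.58-fold among themselves and WT 5 came close to the lowest Rig1 KO library. The mean was 3.37 ± 1.34 TPM (SD, n = 5) in WT and 6.17 ± 0.732 TPM (SD, n = 4) in Rig1 KO, with a log2 fold change of 0.76 (SE 0.20, limma adjusted p = 0.0104). Without WT 4 and WT 5 it was 1.04.

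The Zeb2 level went with that of other cells' markers. The 9 measured monocyte and macrophage markers summed to 521, 625, 936, 983 and 1190 TPM in WT 1 to 5, the same order as Zeb2, and to 1060 to 1169 TPM in the Rig1 KO libraries. Only Ccr2 and Ms4a7 of these 9 rose, and no marker was at 0. The 10 natural killer and innate lymphoid markers summed to 101 to 233 TPM in WT and 201 to 255 TPM in Rig1 KO. WT 1 to 5 were again in rising order of sum, and 5 of the 10 markers rose in Rig1 KO. Most of the sum came from Tyrobp (30.6 to 85.1 TPM in WT) and Fcer1g (32.7 to 81.2 TPM in WT), and neither passed. With the mean of the monocyte markers as a covariate the Zeb2 log2 fold change was 0.28 (limma adjusted p = 0.148). With that of the natural killer markers it was -0.13 (adjusted p = 0.640), so the direction turned, while with the B cell markers it was 1.20 (adjusted p = 0.0184).

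**Figure D2:**
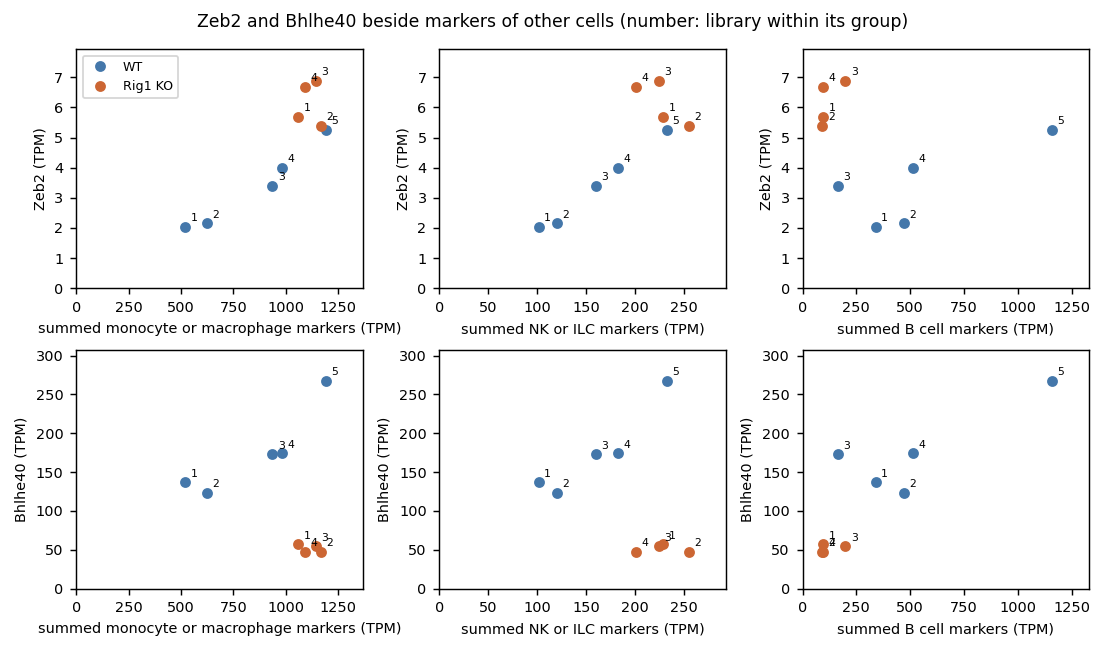
Deposited TPM of Zeb2 (top) and Bhlhe40 (bottom) in each library against the summed TPM of the monocyte or macrophage, natural killer or innate lymphoid (NK or ILC) and B cell markers, with the library number beside each point. Zeb2 climbs with the first 2 marker sums through the WT libraries, from 2.03 to 5.26 TPM. Bhlhe40 is at 47.6 to 57.4 TPM in the Rig1 KO libraries and at 267 TPM in WT 5, whose B cell marker sum (1159 TPM) no Rig1 KO library approaches. In WT 3 Bhlhe40 is at 173 TPM with a B cell sum of 165 TPM. In Rig1 KO 3 it is at 54.4 TPM with a B cell sum of 199 TPM.

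Bhlhe40 was the 1 factor that fell. It was at 137, 124, 173, 174 and 267 TPM in WT and at 57.4, 47.7, 54.4 and 47.6 TPM in Rig1 KO. Every WT library was far above every Rig1 KO library. The mean fell 3.38-fold from 175 ± 56.2 TPM (SD, n = 5) to 51.8 ± 4.92 TPM (SD, n = 4), with a log2 fold change of -1.69 (SE 0.19, limma adjusted p = 5.00e-05), and 1.18% of tested genes had a lower one. WT 5 stood above the other WT libraries, and without it the log2 fold change was -1.52. The call held under all 22 alternatives, from -2.48 with the natural killer covariate to -1.27 with the B cell covariate. Its relative Bhlhe41, a repressor of the same family, fell too, from 4.06 ± 1.84 TPM (SD, n = 5) to 0.927 ± 1.06 TPM (SD, n = 4; limma adjusted p = 0.00624), with overlapping groups. With the B cell covariate its log2 fold change was -0.26 (limma adjusted p = 0.638).

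Id2, which binds E proteins and keeps them off DNA, was at 394, 382, 471, 428 and 437 TPM in WT and at 524, 492, 516 and 492 TPM in Rig1 KO. No library of one group reached the other, yet the rise was small. The log2 fold change was 0.26 (SE 0.065, 95% confidence interval 0.12 to 0.41, limma adjusted p = 0.00741), and 32.8% of tested genes had a higher one. Scaling the libraries by the median ratio brought the median change of all genes from 0.13 to 0.01. Under that scaling the Id2 change was 0.14 and no longer passed (adjusted p = 0.0942).

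Runx3, which silences Cd4 and supports cytotoxic genes in CD8+ T cells, was at 43.3, 39.0, 42.2, 39.7 and 48.5 TPM in WT and at 56.0, 46.1, 55.3 and 54.7 TPM in Rig1 KO. It was the 1 factor whose groups overlapped, since Rig1 KO 2 lay below WT 5. The log2 fold change was 0.31 (SE 0.080, 95% confidence interval 0.13 to 0.49, limma adjusted p = 0.00936), and 0.19 (adjusted p = 0.0474) after median ratio scaling. Median ratio scaling thus took away part of the rise of both Id2 and Runx3. With TPM as deposited, the median log2 fold change of the 10 CD8+ T cell markers, 0.26, was similar to theirs. Of the 8 factors, 6 were higher without overlap, where 28% of tested genes were, and 1 was lower without overlap, where 10.1% were, 38.1% of tested genes in either direction.

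**Figure D3:**
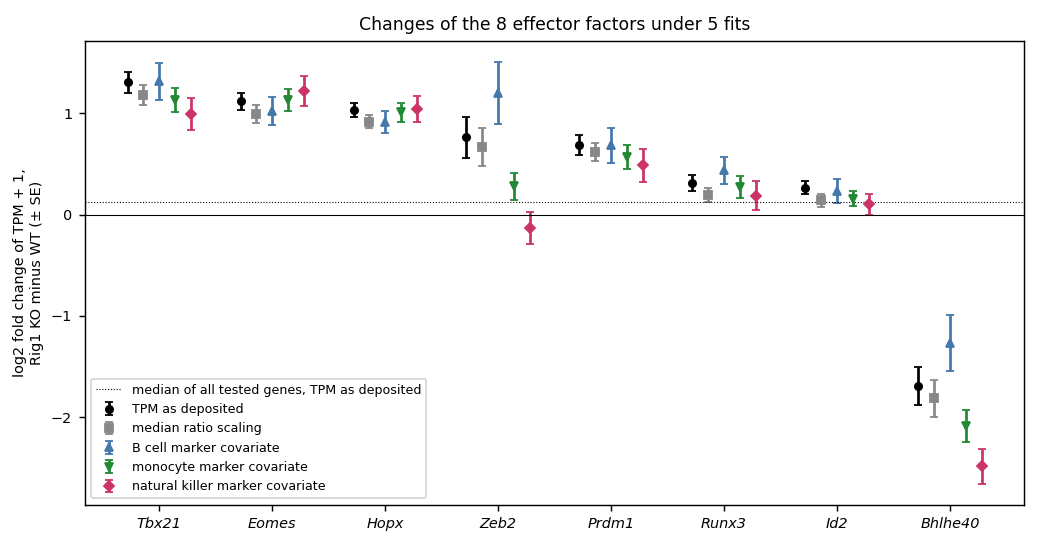
Log2 fold change of TPM + 1 (Rig1 KO minus WT) with its SE for each factor, in the fit to TPM as deposited, after median ratio scaling and with the marker mean of B cells, monocytes or natural killer cells as a covariate; the dotted line is the median of all tested genes, 0.13. Tbx21, Eomes and Hopx stay between 0.91 and 1.31 and Bhlhe40 at or below -1.27, while Zeb2 runs from 1.20 to -0.13, Runx3 from 0.44 to 0.18 and Id2 from 0.26 to 0.10.

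The covariate of natural killer and innate lymphoid markers is given for the whole group, since natural killer cells use several of these factors. With it, 3 of the 8 factors were called higher (Tbx21, Eomes and Hopx) and 9.99% of tested genes were, and Bhlhe40 was called lower, as were 7.96%. Prdm1 was at 0.48 (adjusted p = 0.0704), Runx3 at 0.18 (adjusted p = 0.427) and Id2 at 0.10 (adjusted p = 0.579). The markers, which include Tyrobp, Fcer1g, Gata3 and Il1rl1, are not confined to natural killer cells, and CD8+ T cells can express several themselves. A call lost with this covariate therefore does not point to 1 cell type. The share of the signal that comes from natural killer cells was not tested. With the monocyte covariate 4 factors were called higher, Prdm1 being the fourth, where 19.9% of tested genes were higher and 9.95% lower. With the B cell covariate 6 were called higher, all but Id2, where 21.5% of tested genes were higher and 5.79% lower. Bhlhe40 was called lower in both.

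Levels can be compared between genes only per length, and the deposited TPM values are a poor guide to that. The lengths behind them matched the whole genomic span, with introns, within 1% for 96.6% of 17486 genes. For these factors the span was from 1.34 times (Bhlhe40) to 18.6 times (Hopx) the exon length. With exon lengths, WT levels ran in the order Id2 (213 ± 16.8 TPM, SD, n = 5), Runx3 (180 ± 14.5), Eomes (97.0 ± 10.8), Bhlhe40 (86.2 ± 26.7), Tbx21 (58.1 ± 8.64), Hopx (53.2 ± 3.73), Zeb2 (8.30 ± 3.23) and Prdm1 (4.65 ± 0.859). Neighbours in this order overlapped between libraries, except that Runx3 was above Eomes and Hopx above Zeb2 in every WT library. In Rig1 KO, on the same exon-length scale, Eomes (205 ± 10.1 TPM, SD, n = 4) came up to Runx3 (218 ± 16.4) and overlapped it. Bhlhe40 (24.9 ± 2.37) dropped below Tbx21 (143 ± 10.2) and Hopx (113 ± 5.63), with no overlap. Zeb2 and Prdm1 remained the lowest, at 14.8 ± 1.42 and 10.8 ± 0.880 TPM.

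Ratios within a library do not depend on how the library was scaled, apart from the 1 added to each TPM. For 5 pairs of a factor and its relative or antagonist, the log2 ratios were compared between genotypes by exact permutation tests (two-sided, smallest possible p = 0.00794), adjusted over the 5. Zeb2 rose against Zeb1, its relative with the opposite role in memory cells. The log2 ratio was -0.91 ± 0.41 (SD, n = 5) in WT and 0.01 ± 0.03 (SD, n = 4) in Rig1 KO (exact p = 0.0159, adjusted p = 0.0397). From WT 1 to WT 5 it climbed from -1.40 to -0.37, in the order of the monocyte and natural killer marker sums. The part of such cells in this ratio was not tested. Prdm1 rose against Bcl6, the repressor with which Blimp-1 is mutually antagonistic, from -3.18 ± 0.32 (SD, n = 5) to -2.27 ± 0.12 (SD, n = 4; exact p = 0.0159, adjusted p = 0.0397). Bcl6 itself, which B cells also express, was highest in WT 5 at 22.6 TPM and at 11.3 to 15.7 TPM in the other WT libraries. Both ratios were higher in 4 of 4 Rig1 KO libraries than in any WT library. With any 1 library left out the differences stayed at 0.80 to 1.05 and 0.81 to 1.03, with adjusted p from 0.0714 to 0.0893. With 4 against 4 libraries, 0.0714 is the lowest adjusted p that these 2 pairs could reach together. With 5 against 3 the smallest possible exact p is 0.0179, so that limit does not hold there.

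**Figure D4:**
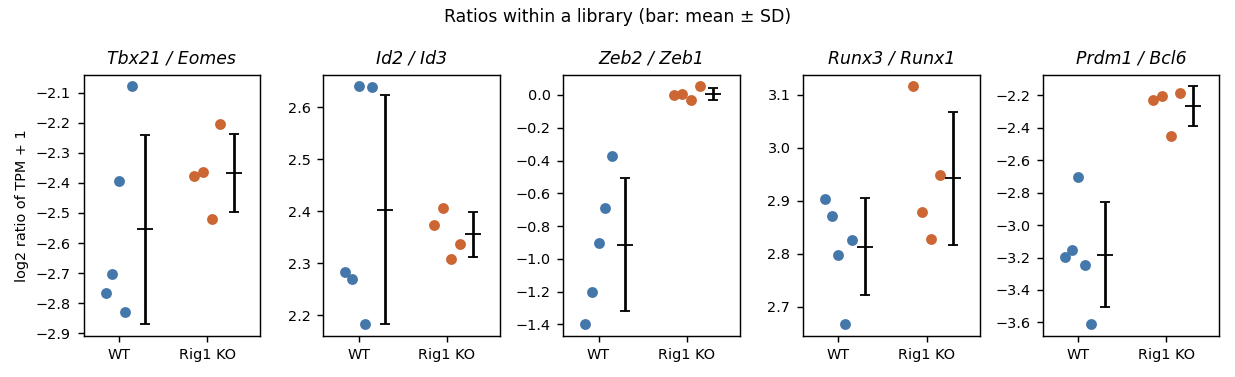
Log2 ratio of TPM + 1 within each library for 5 gene pairs, 1 point per library, with the mean and SD of the group; the vertical axes differ and do not start at 0. Zeb2 to Zeb1 and Prdm1 to Bcl6 are apart between the groups, and the other 3 pairs overlap.

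The ratio of Tbx21 to Eomes did not pass. It was -2.55 ± 0.31 (SD, n = 5) in WT and -2.37 ± 0.13 (SD, n = 4) in Rig1 KO (difference 0.19, exact p = 0.302, adjusted p = 0.377). Id2 against Id3, a related inhibitor kept by naive and memory cells, differed by -0.05 (exact p = 0.635, adjusted p = 0.635), and Runx3 against Runx1 by 0.13 (exact p = 0.103, adjusted p = 0.172). Groups overlapped for all 3 pairs.

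Most listed targets of T-bet or Eomes in cytotoxic lymphocytes were higher in Rig1 KO, as Tbx21 and Eomes were. Of 19 tested targets, 15 rose and 1 fell, where 33.5% of all tested genes were called higher and 12.2% lower. Their median log2 fold change was 1.42, against 0.13 for all genes. The list was chosen with earlier results of these data known, so its counts and median are a description only. Whether T-bet or Eomes drove these rises was not tested. The gene of the activating receptor NKG2D, Klrk1, rose 4.37-fold from 26.4 ± 3.16 TPM (SD, n = 5) to 115 ± 10.5 TPM (SD, n = 4). Cxcr3, a chemokine receptor of effector cells, rose 3.20-fold to 447 ± 85.0 TPM and Prf1, which encodes perforin, 2.91-fold to 250.3 ± 23.7 TPM (both SD, n = 4). Il18r1, a chain of the interleukin-18 receptor, rose 2.63-fold from 45.1 ± 5.81 to 118 ± 9.17 TPM. The 1 that fell was Ifng, the interferon-γ gene that T-bet is best known for, from 70.2 ± 11.4 to 21.4 ± 5.13 TPM, and Ccl3, Ccl4 and Il12rb2 did not pass (limma adjusted p = 0.583, 0.270 and 0.0703). Several of these targets are also expressed by natural killer cells. With the natural killer covariate 12 of the 19 rose, where 9.99% of tested genes did.

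Genes that these factors are known to repress did not move in 1 direction. Of 12 tested, 5 rose and 3 fell and the other 4 missed the threshold, with a median of 0.16. With median ratio scaling 3 were higher and 4 lower. The shares of all tested genes were 33.5% higher and 12.2% lower as deposited, and 23.7% and 21.5% after that scaling. Il7r, the interleukin-7 receptor chain that T-bet and Blimp-1 hold down in effector cells, rose from 274 ± 31.2 TPM (SD, n = 5) to 604 ± 63.0 TPM (SD, n = 4). The interleukin-6 receptor gene Il6ra rose from 49.9 ± 2.61 to 65.2 ± 4.97 TPM. Ccr7, the lymph node homing receptor, fell from 406 ± 13.7 to 290.4 ± 14.8 TPM.

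The factors of naive and memory cells split. Of 14 tested, 4 rose and 3 fell and the other 7 missed the threshold, with a median of -0.09. Median ratio scaling turned this to 1 that rose and 7 that fell. Over all tested genes 33.5% were higher and 12.2% lower as deposited, and 23.7% and 21.5% after median ratio scaling. Klf2, which holds T cells quiescent, fell by 0.97 on the log2 scale, from 1937 ± 154 TPM (SD, n = 5) to 989.6 ± 50.2 TPM (SD, n = 4). Ets1, a factor needed for T cell survival, went from 147 ± 8.85 to 186 ± 9.36 TPM, the riser that held after that scaling (0.21, limma adjusted p = 0.00364), though not with the natural killer covariate (limma adjusted p = 0.144). Tcf7, the gene for the stem-like memory factor TCF-1, was at 462 ± 25.2 and 533 ± 31.8 TPM and Id3 at 79.2 ± 8.96 and 98.1 ± 4.86 TPM. Both rose with TPM as deposited, and neither passed after median ratio scaling (limma adjusted p = 0.274 and 0.0833).

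Other factors linked to effector cells moved both ways. Of 17 other effector-linked factors tested, 4 rose and 5 fell and the other 8 missed the threshold, with a median of -0.04. Of all tested genes, 33.5% were called higher and 12.2% lower. The 4 with the smallest p all fell. Klf6, a zinc finger factor induced by stress and activation, fell 4.02-fold from 939 ± 55.0 TPM (SD, n = 5) to 233 ± 12.3 TPM (SD, n = 4). Irf4, which scales with T cell receptor signal strength, fell 4.70-fold from 58.4 ± 14.6 to 12.4 ± 2.34 TPM, and B cells and plasma cells express it as well. Nfil3, a bZIP factor of lymphocytes, fell 3.98-fold to 3.69 ± 0.705 TPM, and the orphan nuclear receptor gene Nr4a3 fell 2.64-fold to 7.70 ± 0.907 TPM. The ones that rose were Stat4, the factor through which interleukin-12 induces T-bet, Ikzf3, Zfp683 (Hobit, a Blimp-1 relative) and Zbtb32.

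**Figure D5:**
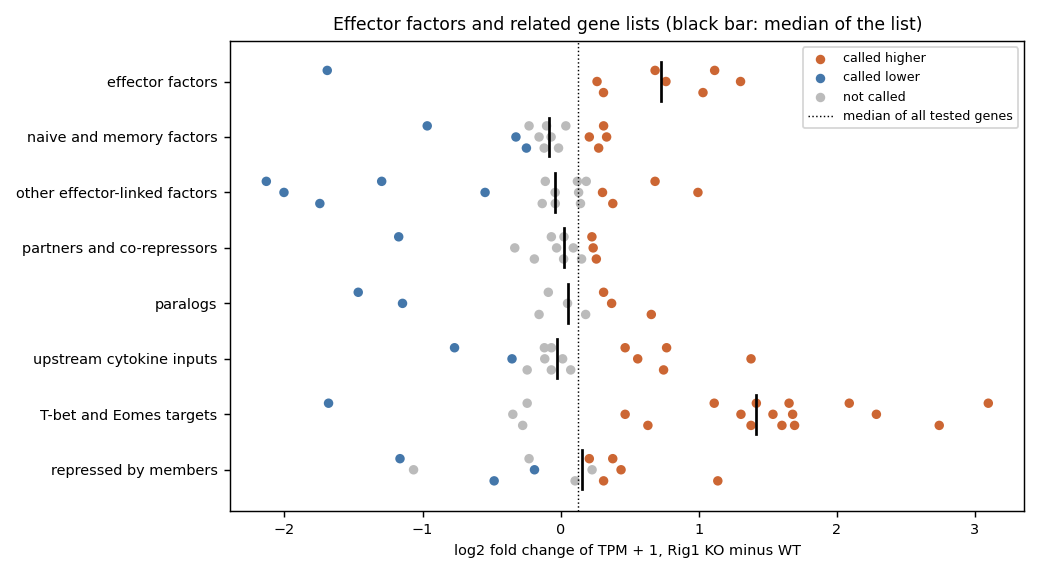
Log2 fold change of TPM + 1 (Rig1 KO minus WT) of each tested gene in the 8 effector factors and 7 related lists, 1 point per gene, coloured by its call, with the list's median as a black bar and the median of all tested genes, 0.13, dotted. The effector factors (median 0.72) and the T-bet and Eomes targets (median 1.42) lie to the right of that line, and the medians of the other 6 lists are between -0.09 and 0.16.

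The binding partners moved little, apart from 1. Of 12 tested, 3 rose and 1 fell and the other 8 missed the threshold, with a median of 0.02. With median ratio scaling 1 was higher and 4 were lower. The shares of all tested genes were 33.5% higher and 12.2% lower as deposited, and 23.7% and 21.5% after that scaling. Kdm6b, a histone demethylase that T-bet recruits, fell 2.26-fold from 231 ± 13.1 TPM (SD, n = 5) to 102 ± 7.47 TPM (SD, n = 4). Cbfb, the obligate partner of Runx3, was at 49.2 ± 1.71 and 59.2 ± 5.48 TPM, a rise of 0.26 on the log2 scale that held after that scaling at 0.14 (limma adjusted p = 0.0198) but did not pass with the monocyte or natural killer covariate (limma adjusted p = 0.102 and 0.384). Srf, which Hopx binds, and Ehmt2, the methyltransferase G9a that Blimp-1 recruits, also rose with TPM as deposited (0.23 and 0.24), and neither passed after median ratio scaling (0.10 and 0.11). Ehmt2 also did not pass without WT 1, 2 or 3 or without Rig1 KO 2, 3 or 4, left out 1 at a time.

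Among relatives of the factors, 3 of 9 tested rose and 2 fell, and 4 missed the threshold, with a median of 0.05. With median ratio scaling 1 was higher and 4 were lower. The shares of all tested genes were 33.5% higher and 12.2% lower as deposited, and 23.7% and 21.5% after that scaling. Runx2, which unlike Runx1 is linked to memory cells, rose from 1.83 ± 0.251 TPM (SD, n = 5) to 3.46 ± 0.279 TPM (SD, n = 4). Tbr1, the T-box relative of Tbx21 and Eomes in the brain, was at 0.675 to 1.90 TPM in WT and at 0 to 0.139 TPM in Rig1 KO, with the groups apart. Id3 and Tbx6 were the other relatives that rose, and Bhlhe41 the other that fell.

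The receptors and signalling genes that feed these factors had no common direction. The 14 tested were genes of cytokine receptors and STAT factors and Mtor, a kinase gene. Of these, 5 rose and 2 fell and the other 7, Mtor included, missed the threshold. Among all tested genes, 33.5% were called higher and 12.2% lower. The list's median was -0.03, against 0.13 for all tested genes. With median ratio scaling 5 were higher and 7 lower, where 23.7% and 21.5% of tested genes were. Il27ra rose from 274 ± 12.6 TPM (SD, n = 5) to 404 ± 12.5 TPM (SD, n = 4) and Il2rb, the shared interleukin-2 and interleukin-15 receptor chain that is itself a target of T-bet and Eomes, from 365 ± 27.5 to 504 ± 6.37 TPM. The risers included Il12rb1 and Il18r1, which encode 1 chain each of the interleukin-12 and interleukin-18 receptors. Il12rb2, which encodes another interleukin-12 receptor chain, did not rise (log2 fold change -0.24, limma adjusted p = 0.0703). The fallers were Ifngr1 and Ifngr2, chains of the interferon-γ receptor, with Ifngr2 falling from 53.6 ± 6.18 to 30.9 ± 1.34 TPM.

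For each factor, the 2 genes with the most similar values over the 9 libraries were found among 9376 tested genes, by the root mean square difference of log2(TPM + 1) after taking away each gene's WT mean. For Tbx21 these were Fasl, the death ligand of cytotoxic cells (0.11), and Il18rap, the accessory chain of the interleukin-18 receptor (0.11). For Eomes they were Ms4a4c (0.09) and F2rl1, a protease-activated receptor gene (0.10). For Zeb2 they were Serpinb9, an inhibitor of granzyme B (0.13), and Arhgap19 (0.13), and for Prdm1 they were Miip (0.06) and Ndufab1, a mitochondrial acyl carrier (0.06). Hopx lay closest to Gins3, a DNA replication factor (0.07), and Rnf32 (0.09). The small rises of Id2 and Runx3 were shared most closely by Pip4k2b (0.05) and Cog6 (0.05), and by Rhof (0.05) and Foxk1 (0.06). After median ratio scaling Pip4k2b (limma adjusted p = 0.0622), Cog6 (0.149) and Rhof (0.0524) did not pass, and Cog6 also did not pass without WT 1, WT 2 or Rig1 KO 4. Bhlhe40 lay closest to Vegfa (0.06), the angiogenic growth factor gene, and next to Marcksl1 (0.18). Vegfa was at 4.78 ± 2.15 TPM in WT (SD, n = 5) and 0.708 ± 0.182 TPM in Rig1 KO (SD, n = 4). It is low as well, and in mean TPM it fell 6.76-fold, against 3.38-fold for Bhlhe40.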

How the data were processed

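Poly(A) RNA of 9 libraries of splenic CD8+ T cells (5 WT, 4 Rig1 KO) is deposited as TPM, 1 column per library, per the file headers. The tools named are fastp and featureCounts and the genome mm39 (GRCm39), as listed per the submitters' processing notes. The aligner, annotation and gene lengths behind them are not given in the sources used here. TPM sums to 1e+06 in each library. Low values keep whole-number ratios between libraries, from which whole reads were recovered for 100% of genes (relative tolerance 2e-12, up to a common divisor per gene, so totals are lower bounds). In all 16 pairs of replicates the reads differed beyond sampling noise (chi-square divided by its degrees of freedom 4.60 to 20.1).

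The test was limma 3.58.1 (R 4.3.3) on log2(TPM + 1), for genes reaching a TPM of 1 in 4 or more libraries (mean-variance trend, no covariates, two-sided, Benjamini-Hochberg over all tested genes, threshold 0.05). All 8 factors passed this filter. The method was tested on simulated data. Alternatives were pseudocounts of 0.1 and 0.5, 2 other filters, median ratio and quantile scaling, exon lengths from a GENCODE annotation of GRCm38, limma voom on recovered reads, the replicate block, a B cell marker covariate, leaving out each library, and leaving out WT 4 and WT 5. The natural killer and monocyte covariates were chosen after seeing the data.

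The factors, lists and markers were chosen with earlier results of these data known, and no set test was run. The rule named all 8 factors, up to 4 genes per list with the smallest p, 2 most similar genes per factor, and markers where a marker list moves with the groups. Ifng and other genes named because a count was 5 or fewer, and Bcl6 and Jchain, were chosen after their values were seen. Listed symbols outside the files were not analysed here, and some genes counted in the lists are not reported here by name.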

Additional observations from a re-analysis of the deposited data

Results flagged for a closer look

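In 4 of 102 groups of libraries examined (51 genes, 2 genotypes), 1 library stood apart from the rest by Dixon's criterion, where chance gives about 1 in 20. Runx3 was at 46.1 TPM in Rig1 KO 2, while the other Rig1 KO libraries were at 54.7 to 56.0 TPM. Without that library its log2 fold change was 0.38. Irf4 was at 83.7 TPM and Kdm6b at 254 TPM in WT 5, both the highest of the WT libraries. Ccr7 was at 382 TPM in WT 2, the lowest of the WT libraries.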

How the results depend on the processing

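Tbx21, Eomes, Hopx and Bhlhe40 kept their direction and stayed past the threshold under every alternative run, as given with their values. Id2 did not pass with the B cell covariate (0.23), median ratio scaling (0.14), the monocyte covariate (0.16) or the natural killer covariate (0.10). Runx3 did not pass with the monocyte (0.27) or natural killer covariate (0.18), Prdm1 with the natural killer covariate (0.48) and Zeb2 with the monocyte covariate (0.28), and Zeb2 turned to -0.13 with the natural killer covariate. These covariates left 4 (monocyte) and 3 (natural killer) factors called higher. The causes were not tested. Zeb2 and Prdm1 gave no value with a mean TPM of at least 5. Of all genes, 3526 were called higher and 1291 lower. The number higher was 2264 with the B cell, 2098 with the monocyte and 1053 with the natural killer covariate. The number lower was 610 with the B cell covariate, 839 with the natural killer covariate, 1944 with limma voom, 2266 after median ratio and 2195 after quantile scaling, the latter 2 with 2491 and 2552 higher.

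Leaving out 1 library at a time, 7 factors stayed called higher and 1 lower, with log2 fold changes of 1.24 to 1.36 (Tbx21), 1.05 to 1.16 (Eomes), 1.01 to 1.05 (Hopx), 0.65 to 0.91 (Zeb2), 0.64 to 0.72 (Prdm1), 0.23 to 0.30 (Id2), 0.28 to 0.38 (Runx3) and -1.80 to -1.52 (Bhlhe40). Genes called higher numbered 2835 to 3610 and lower 1101 to 1285. The log2 ratio differences ran from 0.81 to 1.03 for Prdm1 and Bcl6, 0.80 to 1.05 for Zeb2 and Zeb1, and -0.10 to 0.012 for Id2 and Id3. With 4 against 4 libraries the smallest possible exact p is 0.0286 and with 5 against 3 it is 0.0179.

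The same replicate numbers occur in both genotypes, but same-numbered libraries did not deviate together (correlations of their deviations across genes -0.10 to 0.10, and 1 of 4 Rig1 KO libraries was closest to the WT library of its number). With the replicate block, which takes WT 5 out of the comparison, the 8 calls were kept, with Zeb2 at 0.91, Runx3 at 0.36 and Bhlhe40 at -1.52, and 3595 genes were called higher and 1182 lower. Of 43 other genes named, Arhgap19 (-0.028) and Ehmt2 (-0.030) changed sign, both with the natural killer covariate, and 15 lost their call in at least 1 alternative (52 of 940 combinations of gene and alternative, 11 of them with the natural killer covariate). At the lowest depth, 79 Prdm1 reads carry a counting error of 11.3%.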
